A study of Mus musculus with 960 samples.

Results

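The Wnt ligands, their Frizzled receptors and the secreted and cytoplasmic proteins that modulate them were described here in the open chromatin of a mouse breast tumour. The members were all protein-coding genes of the GENCODE M1 annotation of mouse build mm9 whose symbol is Wnt, Fzd, Rspo, Sfrp, Dkk, Axin or Lgr followed by a digit. They numbered 46 of 22342 genes: 19 Wnt ligands, 10 Frizzled receptors, 4 R-spondins (Rspo), 3 Lgr receptors, 4 secreted Frizzled-related proteins (Sfrp), 4 Dickkopf proteins (Dkk) and 2 Axins. The rule used names and positions only and no measured value.

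The tumour came from the MMTV-PyMT mouse, in which the promoter of mouse mammary tumour virus drives the polyoma middle T oncogene in the mammary epithelium. The study's methods describe a mouse killed at 3 months of age and perfused with fixative, and the labels name no animal. Cells were fixed, stained, tagged with Tn5 transposase in bulk and sorted 1 per well, each plate having 96 wells: on 8 plates the antibodies were against EpCAM and HIF1α, and on 2 plates against EpCAM and CD45. The values are the positions of 50000 windows of 500 bp around the summits of 38400 peaks that the authors called on pooled cells, so there is 1 sample without replicate error, and the depth behind each window is unknown. Whether the wells stained for CD45 entered that pool is not stated, and no comparison between the stains could be made.

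Wnt proteins are lipid-modified secreted ligands that bind Frizzled receptors together with the co-receptors Lrp5 and Lrp6. In the canonical branch this stops a cytoplasmic complex built on Axin from degrading β-catenin, which then acts with TCF/LEF factors on target genes. R-spondins bind Lgr receptors and keep Frizzled proteins at the cell surface, whereas Sfrp proteins bind Wnts outside the cell and Dkk proteins block the co-receptors. In the mammary gland this pathway takes part in bud formation, in ductal branching and in the upkeep of progenitor cells, and several Wnt genes were first found as sites where mouse mammary tumour virus inserts.

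A window at a start site means any part of a window within 1 kb of the start of a protein-coding transcript. Such a window was present at all 10 Frizzled receptors and absent from most of the Wnt ligands, beside 52.2% of all protein-coding genes. All 10 of these receptors have a CpG island start site, and 84.4% of all genes with such a start had a window there. Start sites rich in GC and in SP/KLF motifs occurred in both roles, and their part in the difference was not tested. As examples, the 150 bp before the outermost start site are printed for 2 receptors with start-site windows and 2 ligands without one. They run 5′ to 3′ along the gene, with each GGGCGG or its reverse complement CCGCCC in capitals. GGGCGG is the core that SP and KLF factors bind, and overlapping copies were counted separately.
Fzd5, chr1:64784325-64784474, minus strand, window present: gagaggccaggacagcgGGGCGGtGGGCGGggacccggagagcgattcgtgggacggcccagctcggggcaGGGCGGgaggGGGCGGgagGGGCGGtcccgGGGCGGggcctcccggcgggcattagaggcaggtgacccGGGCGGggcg
Fzd7, chr1:59538841-59538990, plus strand, window present: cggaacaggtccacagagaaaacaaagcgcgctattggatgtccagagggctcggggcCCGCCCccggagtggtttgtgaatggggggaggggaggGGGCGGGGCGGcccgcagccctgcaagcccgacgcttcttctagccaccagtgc
Wnt4, chr4:136833254-136833403, plus strand, no window: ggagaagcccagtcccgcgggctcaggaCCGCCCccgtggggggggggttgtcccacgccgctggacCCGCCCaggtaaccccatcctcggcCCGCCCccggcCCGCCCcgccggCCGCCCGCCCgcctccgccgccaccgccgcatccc
Wnt9a, chr11:59120280-59120429, plus strand, no window: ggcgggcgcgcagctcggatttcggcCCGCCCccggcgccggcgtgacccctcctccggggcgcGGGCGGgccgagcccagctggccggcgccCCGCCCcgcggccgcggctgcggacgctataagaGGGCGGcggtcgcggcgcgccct
The 4 stretches held 7 matches at Fzd5, 3 at Fzd7, 6 at Wnt4 and 4 at Wnt9a, with GC contents of 80.7%, 67.3%, 82.7% and 84.7%. They do not stand for their roles, since Fzd5 and Wnt4 had the most matches among the receptors and the ligands. Fzd1, Fzd3, Fzd8 and Wnt5a, all with start-site windows, had 0 matches. Among members with a CpG island start site, at least 1 match lay in these 150 bp in 13 of the 21 with a start-site window and in 11 of the 14 without one, beside 57.6% and 52.5% of all genes of those kinds. A match is a description of the letters and not a bound site.

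Of the 46 members, 21 had a window at a start site (45.7%, exact 95% binomial interval 30.9% to 61.0%), beside a background of 52.2% of all protein-coding genes. A window anywhere in the gene or at a start site was present in 27 members (58.7%, interval 43.2% to 73.0%), beside 58.5% of all genes. These intervals cover counting error only, since the members share chromosomes and gene families and are not replicates. Start sites in CpG islands were more frequent among the members, 35 of 46, than among all genes (48.2%), and the counts within that class are given with the base composition of the start sites. The members held 79 windows from 60 called peaks, of which 36 lay at start sites and 43 elsewhere in the gene, and the median was 1 window per gene both for the members and for all genes. A gene without a window is one that did not reach this list, and its chromatin was not shown to be closed.

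**Figure D1:**
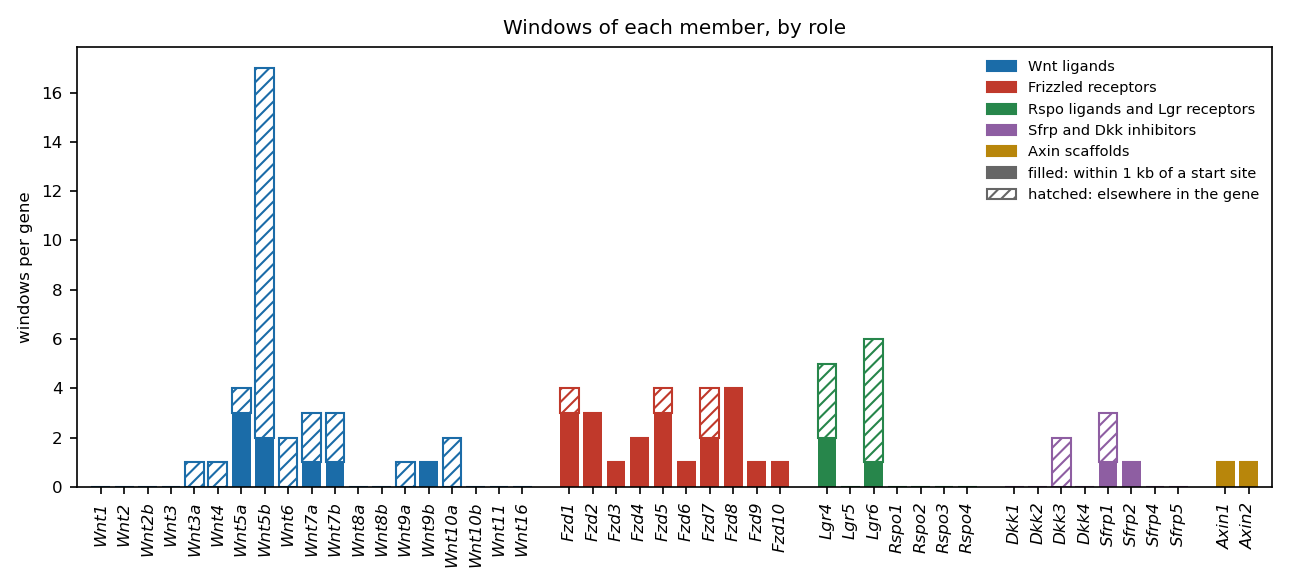
Number of windows (vertical axis) of each of the 46 members (horizontal axis), coloured by role, with start-site windows filled and windows elsewhere in the gene hatched. Every Frizzled receptor has between 1 and 4 windows, Wnt5b has 17, and 19 members have none.

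The Frizzled receptors, the Wnt-binding receptors of the pathway, all had a window at a start site: 10 of 10, with an interval of 69.2% to 100%, beside 52.2% of all genes. All 10 have a CpG island start, and 84.4% of all genes with such a start had a window there. That share lies inside the interval of the receptors. The receptors held 25 windows, 21 of them at start sites. Their genes are short, with a median of 4.59 kb, and 6 of the 10 have a single exon. The closest summit lay within 200 bp of a start site in all of them except Fzd10, where it lay 0.661 kb after the start in the coding exon, and the median of that distance was 104.5 bp.

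Fzd8 held 4 start-site windows in its 3.35 kb, at 0.671 and 0.196 kb before and at 0.299 and 0.838 kb after the start, all from 1 called peak. Fzd1 showed a similar run inside the gene, with summits 0.091, 0.636, 1.15 and 1.53 kb after the start and again from 1 called peak. Fzd5 had summits 1.13 and 0.088 kb before the start, 0.699 kb after it in the intron and 1.26 kb after it in the coding exon. At each of these genes the windows of a single call thus reached from the promoter or the start into the coding exon. Fzd7, a receptor linked to mammary progenitor cells, had windows 0.639 and 0.096 kb before the start and a separate called peak in the coding exon, at 1.66 and 1.91 kb. Fzd2, one of the receptors with a single exon, had 3 windows, all upstream, with summits 1.15, 0.657 and 0.127 kb before the start. Fzd4, the receptor that also binds the non-Wnt ligand Norrin, had 2, both upstream, at 0.506 and 0.107 kb. Fzd3, Fzd6, Fzd9 and Fzd10 had 1 each. The windows of Fzd6 and Fzd10 lay within 1 kb of the start of a lincRNA as well, Gm17265 and 5930412G12Rik, and the list gives no strand to tell them apart.

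The Wnt ligands had a start-site window in 5 of 19 genes, Wnt5a, Wnt5b, Wnt7a, Wnt7b and Wnt9b (26.3%, interval 9.15% to 51.2%, beside the background of 52.2%). The interval of the ligands and that of the receptors did not overlap, which was not tested further because members of a family are not independent draws. A further 5 ligands, Wnt3a, Wnt4, Wnt6, Wnt9a and Wnt10a, had windows only away from their start sites. The remaining 9, Wnt1, Wnt2, Wnt2b, Wnt3, Wnt8a, Wnt8b, Wnt10b, Wnt11 and Wnt16, had none. Neither canonical ligands nor those that act largely outside the β-catenin branch were all on one side, since canonical Wnt7b had windows and canonical Wnt1 had none, and non-canonical Wnt5a had windows and non-canonical Wnt11 had none.

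**Figure D2:**
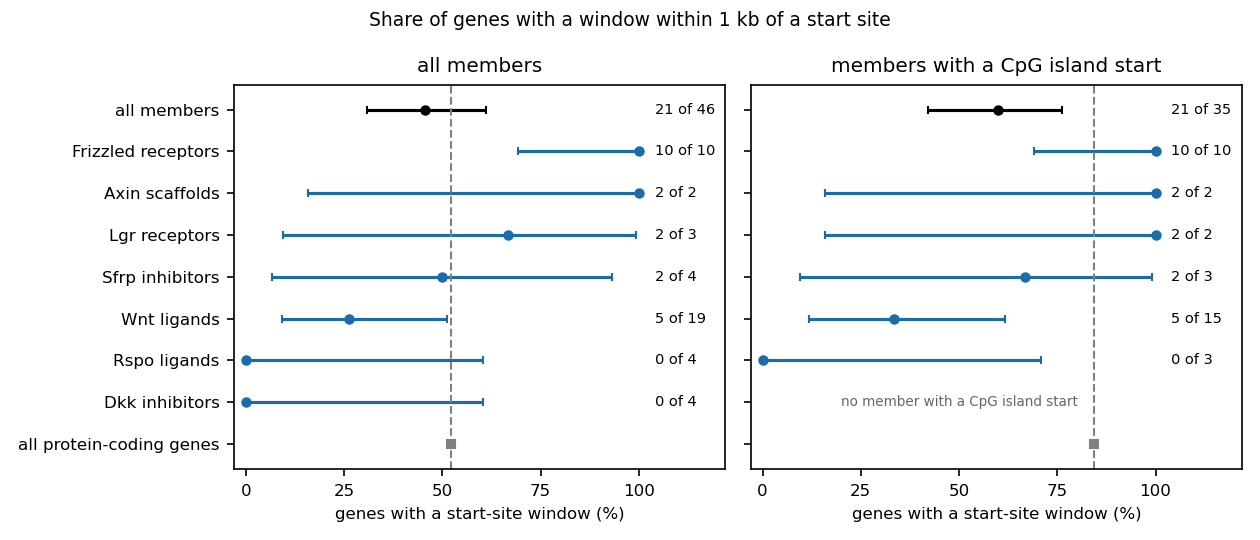
Percentage of genes with a start-site window for all members and for each role (left), and for members whose start site lies in a CpG island (right). Points are shares, bars are exact 95% binomial intervals, the counts stand at the right edge, and the grey square and dashed line mark all protein-coding genes at 52.2% (left) and 84.4% (right); all 10 Frizzled receptors and 5 of 19 Wnt ligands have such a window.

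Wnt5a had 4 windows. Their summits lay 0.074 kb before the start and 0.569, 1.23 and 1.99 kb after it, so that 3 counted as start-site windows and the last lay in intron 1. Wnt7b, a canonical ligand of epithelia, had its window on the start itself, with the summit 0.006 kb after it and also within 1 kb of the start of the lincRNA AU022754. Its other windows lay in intron 1 at 12.7 and 14.2 kb. Wnt7a had a window 0.418 kb before the start and a pair from 1 called peak in intron 3, at 41.4 and 42.0 kb. Wnt9b had a single window, 0.115 kb before the start.

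The ligands with windows only inside the gene differed in where these lay. Wnt4, which relays progesterone signals in the mammary epithelium, had 1 window in intron 1 at 9.85 kb, and it held an AP-1 match. Wnt3a, a canonical ligand, had 1 in intron 1 at 7.58 kb. Wnt9a, the neighbour of Wnt3a, had 1 in intron 1 at 6.53 kb. Each of these 3 windows was the only one kept from its call. Wnt6 had a window in intron 1 whose summit, at 1.40 kb, was the closest to the 1 kb limit among the members without a start-site window, and a second in the coding part of exon 4, its last, at 12.6 kb. Wnt10a, its neighbour, showed the same kind of pair, with 1 window in intron 2 at 3.14 kb and 1 in the coding part of exon 4, also the last, at 11.7 kb. Both last-exon windows were rich in GC, at 66.0% for Wnt6 and 66.2% for Wnt10a.

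Some Wnt genes lie in neighbouring pairs in the mouse genome, and these pairs were unlike each other. Wnt1 and Wnt10b, on chromosome 15, had no window in either gene or in the 11.7 kb between them. Wnt3 and Wnt9b, on chromosome 11, had none in Wnt3 and 1 at the start of Wnt9b, which faces the gap. Wnt3a and Wnt9a had 1 each and none in the 16.2 kb between them, and Wnt6 and Wnt10a had 2 each and none in the 6.20 kb between them. The window closest to Wnt10b and to Wnt1 lay at the start of Arf3, a neighbouring gene, 11.2 and 26.6 kb away.

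Wnt5b stood apart within the module with 17 windows from 14 called peaks, 21.5% of the 79 windows of all members and 15 of the 43 away from start sites. Without it the other 45 members held 62. The gene (chr6:119382549-119494336, minus strand) is 111.8 kb long, and 13 windows lay in intron 1 outside the start-site windows and 2 in intron 3, between 1.44 and 100.2 kb after the outermost start. The start-site windows lay 0.840 kb after the outermost start and 0.371 kb before an inner start, both in intron 1 of the longest transcript. At least 17 windows were present in 120 of all genes (0.537%), and in 19 of the 979 genes of 90 to 130 kb (1.94%), whose median was 2 and whose highest count was 54. One intronic window of Wnt5b (chr6:119428947-119429446) lay within 1 kb of the start of Fbxl14, a gene that overlaps Wnt5b, and with 60 CpG it was unlike the others, which held 4 to 23.

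The intronic windows of Wnt5b are shown by the sequences that carried AP-1 matches (TGANTCA, both strands, in capitals), because 6 of the 10 member windows with such a match were in this gene. AP-1 is the dimer of Fos and Jun proteins, whose motif is common in distal open chromatin of epithelial tumours. Distances are from the outermost start site to the summit of the window that holds the match. Overlapping windows shared matches, so the 6 windows held 5 sites.
Wnt5b, intron 1, window at 7.81 kb, chr6:119486544-119486630: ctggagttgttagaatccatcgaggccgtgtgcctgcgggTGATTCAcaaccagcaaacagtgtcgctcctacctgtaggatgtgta
Wnt5b, intron 1, windows at 7.81 and 8.11 kb, chr6:119486429-119486477: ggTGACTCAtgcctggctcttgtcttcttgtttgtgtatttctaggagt
Wnt5b, intron 1, windows at 22.1 and 22.4 kb, chr6:119472066-119472152: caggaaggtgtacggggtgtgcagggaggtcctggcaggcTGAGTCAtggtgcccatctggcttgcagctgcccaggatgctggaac
Wnt5b, intron 1, window at 76.7 kb, chr6:119417583-119417669: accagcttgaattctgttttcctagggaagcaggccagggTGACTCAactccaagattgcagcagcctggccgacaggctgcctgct
Wnt5b, intron 3, window at 97.998 kb, chr6:119396135-119396221: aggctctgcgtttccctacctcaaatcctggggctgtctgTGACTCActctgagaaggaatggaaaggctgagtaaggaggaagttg
The window at 76.7 kb is the one 0.371 kb before the inner start, and it was the only start-site window of a member with an AP-1 match. The other 4 member windows with a match were those of Wnt4 at 9.85 kb, Wnt7a at 41.4 kb, Lgr4 at 41.7 kb and Sfrp1 at 14.0 kb, all in introns.

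**Figure D3:**
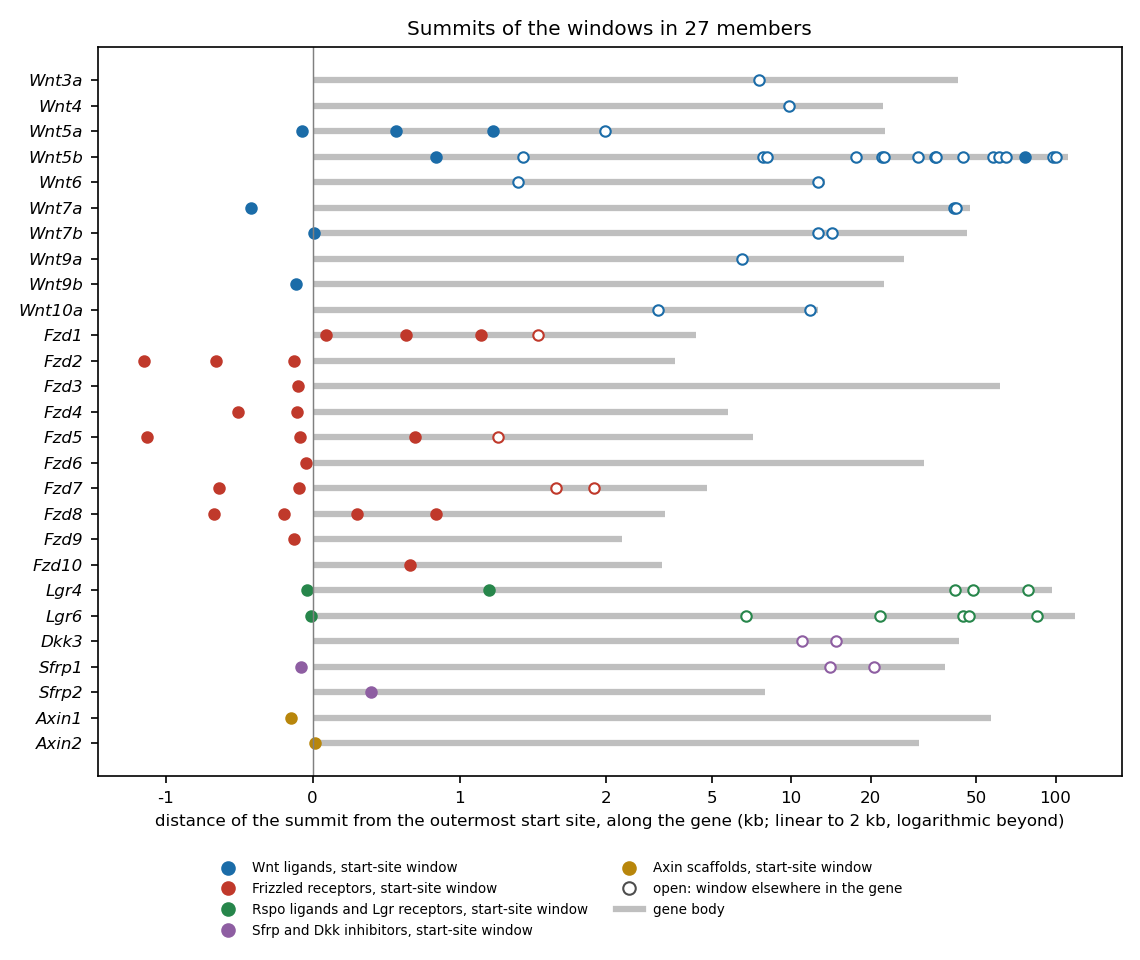
Position of each window summit, in kb from the outermost start site along the gene (linear to 2 kb and logarithmic beyond), for the 27 members with windows, one row per gene, with filled points for start-site windows, open points for other windows and grey bars for the gene body. The Frizzled windows lie within 2 kb of the start, whereas Wnt5b, Lgr4 and Lgr6 hold windows along more than 75 kb.

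The R-spondins and their receptors were split. No R-spondin had a window, 0 of 4, with an interval of 0% to 60.2% for so few genes, beside 58.5% of all genes. The closest summits lay 8.04 kb from the start of Rspo1, 51.5 kb from Rspo4, 111.6 kb from Rspo2 and 173.3 kb from Rspo3, and the last 2 were windows at the starts of other genes, Eif3e and Rnf146. Of the receptors, Lgr4 and Lgr6 had windows and Lgr5 had none.

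Lgr4, the most widely expressed of these receptors, had 5 windows in 96.6 kb, each from a called peak of its own. Its start-site windows had summits 0.041 kb before and 1.20 kb after the start. The others lay in intron 1 at 41.7 and 48.6 kb and in the coding part of exon 5 at 79.0 kb. Lgr6 had 6 windows in 118.9 kb, with 1 on the start (0.008 kb before it), 2 in intron 1, 2 in intron 4 and 1 in intron 6, the last 2.22 kb before an inner start. Lgr5, a stem cell marker and Wnt target gene, is 137.5 kb long and had no window, and the closest summit lay 202.011 kb away at the start of Zfc3h1. With 6 and 5 windows, Lgr6 and Lgr4 joined Wnt5b as the only members with 5 or more, which made 3 of 46 (6.52%) beside a background of 8.82% of all genes.

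Of the secreted inhibitors, 2 of 4 Sfrp genes and none of 4 Dkk genes had a start-site window, beside 52.2% of all genes. The intervals were 6.76% to 93.2% and 0% to 60.2%. A CpG island start is present in 3 of the 4 Sfrp genes and in none of the Dkk genes. Over all genes, 84.4% with such a start and 22.2% without one had a start-site window. Sfrp1 had a window 0.080 kb before its start and 2 in intron 2, at 14.0 and 20.5 kb. Sfrp2 had 1, in the coding part of exon 1 at 0.397 kb. Sfrp5 had none in the gene, and its closest summit lay 2.38 kb before the start, outside the limit. Sfrp4 had none, and its closest summit lay 60.3 kb away. Dkk3, which differs from the other Dickkopf proteins in not blocking Lrp co-receptors, had 2 windows in intron 4, at 10.9 and 14.8 kb. Dkk1, Dkk2 and Dkk4 had none, and the closest summit to Dkk1 lay 518.6 kb away.

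Both Axin genes had exactly 1 window, at the start site. Both have a CpG island start, and 84.4% of all genes with such a start had a window there. Axin1, the constitutive scaffold of the complex that degrades β-catenin, had it 0.147 kb before a start and Axin2, a feedback inhibitor and a direct target of the pathway, 0.015 kb after one. The window of Axin2 held a TCF/LEF match (CTTTGAT, both strands), and only 2 other windows of members did, 1 in intron 1 of Wnt5b and 1 in intron 2 of Sfrp1. These 3 stretches are shown because TCF/LEF factors are the nuclear end of the canonical branch, with the match in capitals.
Axin2, exon 1, chr11:108781731-108781757: gccggctgcgCTTTGATaaggtcctgg
Wnt5b, intron 1, window at 1.44 kb, chr6:119492901-119492987: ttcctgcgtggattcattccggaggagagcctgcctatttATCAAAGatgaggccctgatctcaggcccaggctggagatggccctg
Sfrp1, intron 2, window at 14.0 kb, chr8:24535745-24535799: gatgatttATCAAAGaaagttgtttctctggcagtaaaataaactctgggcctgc
The share of member windows with this motif, 3.80% (interval 0.790% to 10.7%), lay beside 5.13% of all 50000 windows. The window of Sfrp1 also held the only FOX match (TGTTTAC) among the members and an AP-1 match.

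CpG content of the start site is given beside these counts because it moved with accessibility over all genes. With a CpG island start defined as at least 50% GC and an observed over expected CpG ratio of at least 0.6 in the 1 kb around a start, 35 of 46 members had one. All 21 members with a start-site window were among them (60.0% of 35, interval 42.1% to 76.1%), beside a background of 84.4% of all genes with such a start. None of the 11 members without a CpG island start had a start-site window, beside a background of 22.2%. The receptors and ligands differed within this class too, with windows at 10 of 10 Frizzled receptors and at 5 of 15 Wnt ligands (33.3%, interval 11.8% to 61.6%). The 14 members with a CpG island start and no start-site window were 10 Wnt genes (Wnt1, Wnt2, Wnt2b, Wnt3, Wnt3a, Wnt4, Wnt6, Wnt9a, Wnt10b and Wnt11), Rspo1, Rspo2, Rspo3 and Sfrp5. Islands and windows were scored per gene, so in a gene with several starts they can lie at different ones.

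In base composition these 14 covered much of the range of the 21 members with a window. The medians were 66.2% GC and a ratio of 0.821 for the 21, against 63.3% and 0.736 for the 14. For all genes with a CpG island start the medians were 61.9% and 0.804 with a window and 62.8% and 0.756 without one. Wnt4 had the highest GC of any member, at 79.8%. Wnt5b and Wnt9a both had 72.5% GC, with ratios of 0.997 and 1.00, and only Wnt5b had start-site windows. Those windows were poorer in GC, at 55.4% for the outer and 54.8% for the inner start. The outer one, with its summit 0.840 kb after the start, lay outside the 1 kb scored around that start. The pair is thus not a comparison of a window's presence at equal base composition. The members with a window reached down to the 56.5% GC of Wnt5a and the ratio of 0.657 of Fzd2. Chromatin marks and DNA methylation were not measured, and their part in the difference was not tested.

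**Figure D4:**
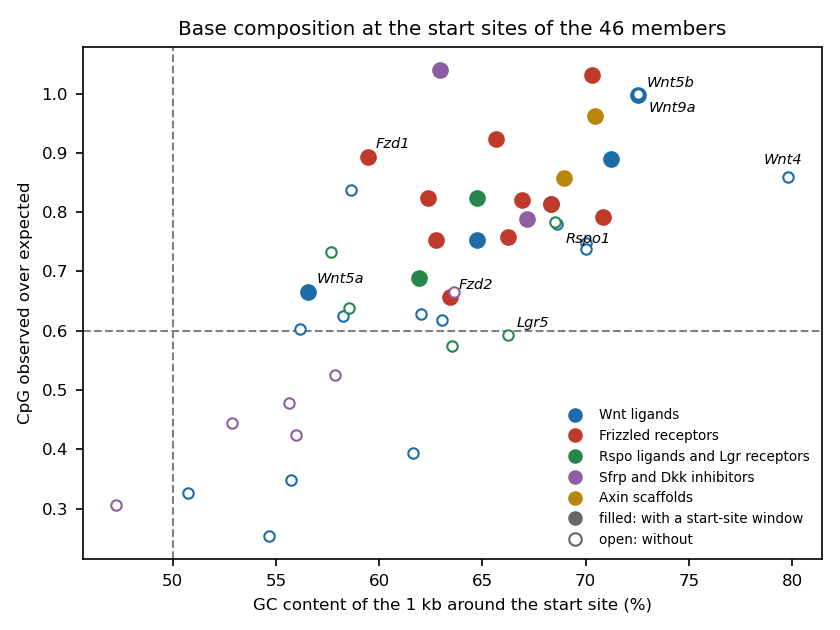
GC content (%) against the observed over expected CpG ratio of the 1 kb around the start site for the 46 members, coloured by role, large filled points with and small open points without a start-site window, and dashed lines at the island limits of 50% GC and 0.6. All filled points lie above the ratio of 0.6, where 14 open points lie as well, and the points of Wnt5b and Wnt9a coincide.

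Beyond the genes, 58 intergenic windows had a member's start as their nearest protein-coding start within 50 kb. They fell at 17 of the 46 members, beside 19.3% of all genes with any such window. The mean was 1.26 per member, beside 0.413 per gene. Of the 17 members, 7 had no window of their own (Wnt2b, Wnt8a, Wnt8b, Wnt11, Wnt16, Rspo1 and Sfrp5). At least 5 such windows lay at Wnt7b, Wnt8b, Fzd5, Fzd7 and Fzd9, which is 5 of 46 members (10.9%) beside a background of 1.70% of all genes. This measure was chosen after the values had been seen, and it depends on how far away the next gene lies, so nothing more is read from it. Nearness in the sequence does not show which gene a window acts on.

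Upstream of Fzd9, 9 windows lay between 25.5 and 3.44 kb before the start, although the gene itself had 1. Fzd7 also had 9, of which 8 lay upstream, with 4 windows 33.3 to 32.4 kb and 3 windows 23.8 to 22.6 kb before the start, each set from 1 called peak, and a lone window at 42.4 kb. At Fzd5, 5 of the 6 windows came from 1 called peak between 20.1 and 18.1 kb before the start. Wnt7b had 9 upstream windows, 8 of them between 48.5 and 29.1 kb away. The 5 windows at Wnt8b were a single called peak 36.2 to 34.7 kb before the start, and the gene had no window of its own. Wnt11 and Wnt2b likewise had 3 windows each from 1 called peak, at 19.7 to 18.9 kb and at 32.9 to 31.3 kb before the start.

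**Figure D5:**
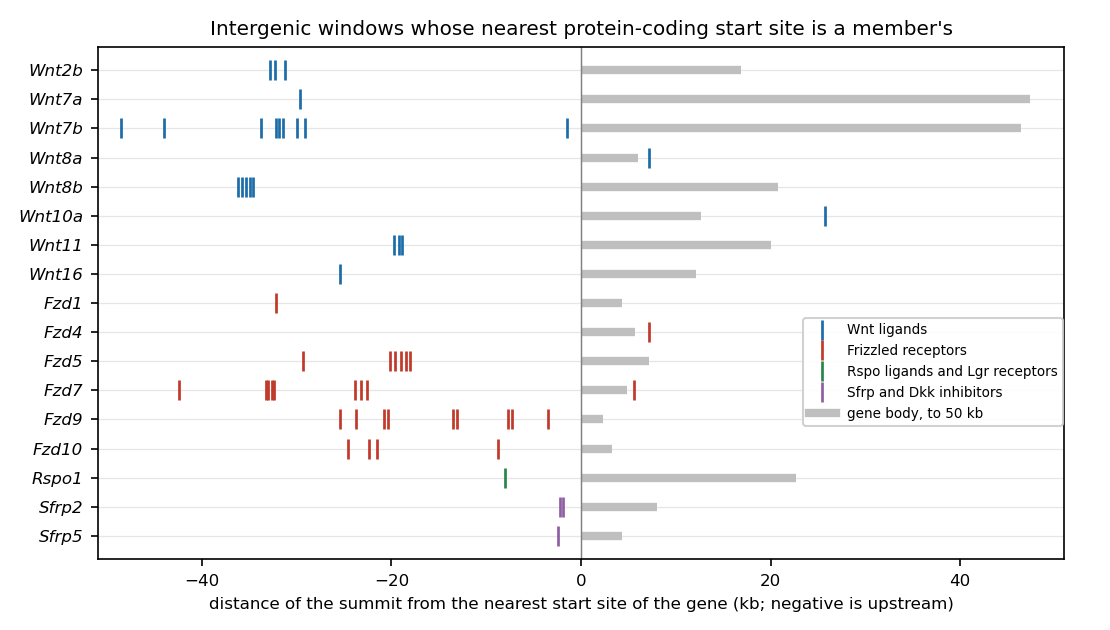
Intergenic windows within 50 kb whose nearest protein-coding start site belongs to a member, plotted by distance of the summit from that start in kb (negative is upstream), one row per gene, with the gene body in grey. Fzd7, Fzd9 and Wnt7b have 9 windows each, Fzd5 has 6 and Wnt8b has 5, nearly all of them upstream.

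Windows of members are set beside other windows of the same kind in base composition and motifs. The intervals count each window as a separate draw, although 15 of the 43 away from starts were in Wnt5b. Start-site windows of members had a median of 63.1% GC and 39.5 CpG, beside 61.6% and 34 over all 18732 start-site windows, and the other member windows had 53.6% and 8, beside 50.4% and 7 over 31268. GGGCGG was present in 26 of the 36 start-site windows (72.2%, interval 54.8% to 85.8%), beside 69.2% of all start-site windows, and the window over the start of Fzd5 held 12 copies, the most of any member. AP-1 matches were present in 9 of 43 member windows away from starts (20.9%, interval 10.0% to 36.0%), beside 18.8%. The core of the HIF motif (ACGTG) was present in 13 of 36 start-site windows (36.1%), beside 36.3%, and in 12 of 43 others (27.9%), beside 25.3%.

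The remaining motifs ranged from the NFI core, in 16 of 43 windows away from starts, to motifs with 1 match. ETS (CGGAAGT) was found in 1 of 36 start-site windows, that of Axin1 (2.78%, interval 0.0703% to 14.5%), beside 11.7% of all start-site windows. TEAD (ACATTCC) was found in 5 of 43 windows away from starts, the NFI core (TTGGCA) in 16 (37.2%), RUNX (TGTGGTT) in 7, FOX in 1 and GRHL (AACCNGTT) in 1. The shares in all windows away from starts were 8.68% for TEAD, 41.6% for NFI, 11.6% for RUNX, 7.30% for FOX and 6.11% for GRHL. Each of these fell inside the interval of the members. At start sites, AP-1 was found in 1 of 36 member windows (2.78%, beside 8.21%) and RUNX in 1 (2.78%, beside 5.77%). TEAD and FOX were found in 0, beside 4.56% and 4.16%. NFI was found in 5 (13.9%, beside 19.2%) and GRHL in 2 (5.56%, beside 3.27%). These shares of all start-site windows also lay inside the member intervals, which are wide for 36 windows.

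The rest of the pathway, taken from a fixed list of 56 genes outside the module, had a start-site window in 43 (76.8%, beside 52.2% of all genes). Of the 56, 44 have a CpG island start, and 36 of these had a start-site window (81.8%, beside 84.4% of all genes with such a start). All but 2 of the 15 cytoplasmic components had one, including Ctnnb1, which encodes β-catenin, Apc, and Dvl1, Dvl2 and Dvl3, which relay the signal from Frizzled. Both co-receptors Lrp5 and Lrp6 and both receptor ligases Znrf3 and Rnf43, which remove Frizzled from the surface, had one too. The most windows were held by Ror1 with 18, a receptor for Wnt5a, and by Tcf7l2 with 17 and Tcf7l1 with 13, which encode TCF factors. Lrp5 and Rnf43 followed with 10 each and Ptk7 with 9. At least 17 windows were present in 0.537% of all genes. These counts were not set against gene length, and a longer gene can hold more windows.

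A start-site window was absent at 13 genes of that list. They were Notum, Frzb, Sost, Sostdc1 and Ndp, all secreted, the receptors Ror2, Kremen2 and Procr, the kinases Gsk3a and Csnk1e, and the nuclear proteins Lef1, Pygo1 and Sp5. Of these, Sost, Sostdc1, Ndp, Kremen2 and Procr have no CpG island start, and only 22.2% of all genes without one had a start-site window. Ror2, a Wnt5a receptor like Ror1, had 5 windows elsewhere in the gene, and Gsk3a, Csnk1e and Sostdc1 had 1 each. The closest summits of Gsk3a and Csnk1e lay 1441 and 1331 bp from a start, not far outside the limit, and that of Ror2 lay 23123 bp away. Lef1, one of the TCF/LEF factors, had none, and its closest summit lay 63945 bp from a start.

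The cell type of the pool was checked against marker genes. Start-site windows were present at 8 of 8 luminal epithelial markers, 0 of 6 basal, 0 of 6 immune, 1 of 6 fibroblast (Pdgfra) and 0 of 5 endothelial markers, beside 52.2% of all genes. Few of these markers have a CpG island start (2 luminal, 0 basal, 0 immune, 1 fibroblast and 1 endothelial), and the background without one was 22.2%. Windows elsewhere in the gene were present at 4 further basal or endothelial markers, Mylk with 8, Trp63 and Pecam1 with 5 each and Kdr with 1, and at the immune marker Csf1r with 1. The study's text describes the cells of the experiment with HIF1α as EpCAM-positive, and the part of the cell types of the pool in the counts of the members was not tested. In a pooled list, fewer cells of a type and less accessibility per cell cannot be told apart.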

How the data were processed

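The labels describe single-cell ATAC-seq with protein staining of tumour cells. According to the study's methods and the submitters' processing notes, the authors mapped reads with Bowtie2 2.1.0 to mm9 (hg19 is also listed), removed duplicates with Picard 1.79, called summits with MACS2 on pooled cells and kept the strongest. The deposited list holds positions and a name for each of 50000 windows, a unit without a scale, and no score, count or q-value, so depth and precision are unknown and a stricter threshold could not be set.

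Here the windows were intersected with protein-coding genes of GENCODE M1 on chromosomes 1 to 19 and X (45993 start sites) in Python 3.11.15 with NumPy 2.4.6 and SciPy 1.17.1. A window belonged to a gene when 1 bp of it fell in the gene or within 1000 bp of a start. Sequences were read from the mm9 genome, and motifs were matched exactly on both strands. Exact (Clopper-Pearson) 95% intervals cover counting error only, and no test between groups was possible. The intersection was checked on simulated positions. All members were named, windows were described singly for the 8 members with the most and for those with windows only away from starts, while the windows of the other members were described after their values were seen. Pathway genes were named when without a start-site window or among the 6 with the most windows; Ctnnb1, Apc, the Dvl genes, Lrp6 and Znrf3 were named after their values were seen. Members, lists and tests were chosen with earlier results of these data known. Alternatives varied the distance, the overlap, the start sites, the windows kept and the searched part of a window.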

Additional observations from a re-analysis of the deposited data

How the results depend on the processing

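No paired analysis was possible because the list pools all cells and holds no replicates. Over all alternatives, 78 of 94 main values stayed within the limits set (1.5 times for counts), and all 10 Frizzled receptors kept a start-site window within 500 or 2000 bp, with the summit or 250 bp of overlap required, and with merged windows or outermost starts only. Within 10000 bp, 69 windows counted as start-site windows, 11 Wnt ligands and 1 R-spondin had one, and members reached 63.0%, against 62.0% of all genes. With only calls that kept 2 or more windows, 7 members had a start-site window (15.2%, against 21.6% of all genes), 9 had any, and 31 windows remained, 18 of them at starts, at 1 Wnt ligand and 6 Frizzled receptors. In the central 200 bp, the share of member windows with a match was 5.06% for AP-1, 1.27% for TEAD, 11.4% for NFI and 26.6% for SP/KLF. It was 3.80% for RUNX, 0% for FOX, 15.2% for HIF, 2.53% for TCF/LEF and 1.27% for ETS. For GRHL it was 3.80%, as in the whole window. A shorter stretch was searched, and the share over all windows in that stretch was not computed. With at least 55% GC and a ratio of 0.65, 21 of 30 members with such a start (70.0%) had a window, against 85.2% of all genes. Start sites of all transcripts and counts by role were added after seeing the data, and counts of single members moved in 29 of 460 cases. Because depth is unknown, the absence of a window is a limit of the list and not evidence of closed chromatin.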

Other observations

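Other families of ligands and receptors, chosen after the values of the Wnt and Frizzled genes had been seen, gave the following counts of genes with a start-site window, with no explanation tested. The share over all genes was 52.2%, and the families are small. Bmp and activin receptors had one in 8 of 9 genes and Bmp ligands in 3 of 11. Fgf receptors had one in 3 of 4 genes and Fgf ligands in 8 of 22. Ephrin receptors had one in 9 of 14 genes and ephrin ligands in 5 of 8, and for Notch it was 3 of 4 receptors and 4 of 5 ligands. The receptor share was thus above the ligand share for Bmp and Fgf and close to it for ephrins and Notch. Of all genes with a CpG island start, 84.4% had a start-site window. In that class the counts were 8 of 8 Bmp and activin receptors and 3 of 6 Bmp ligands, and 3 of 4 Fgf receptors and 5 of 12 Fgf ligands. They were 7 of 11 ephrin receptors and 5 of 7 ephrin ligands, and 2 of 2 Notch receptors and 4 of 4 Notch ligands. The ephrin receptor share was thus below the ligand share in this class.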
